A study of Microcebus murinus with 18 samples.

Results

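The antioxidant and redox defence genes are the enzymes and regulators that remove superoxide and peroxides, keep protein thiols and glutathione reduced, and switch on detoxifying enzymes. They are a list of 39 genes drawn up by function, with no measured value in the rule, although earlier results of these data were known when it was drawn up. Their mRNA was measured in the temporal cortex of 18 grey mouse lemurs (*Microcebus murinus*), a small primate, with 1 human oligonucleotide array for each animal. Young adults numbered 6, of which 4 were females. Healthy old animals numbered 10, of which 3 were males. The AD-like group was 2 old females with ß-amyloid plaques and cortical atrophy. All were born in a captive breeding colony, no treatment or transgene is stated, and the plaques had arisen without either. Both AD-like animals were females, so sex and pathology overlap in that group, and 2 animals set the precision of every AD-like value. The number of arrays in each group limits the precision of all the others.

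Superoxide dismutases turn superoxide into hydrogen peroxide, which catalase, glutathione peroxidases and peroxiredoxins then reduce to water. Peroxiredoxins are recharged by thioredoxin and glutathione peroxidases by glutathione, and both carriers draw on NADPH. The transcription factor NRF2, held back by KEAP1, controls many of these genes, and cortical tissue depends on them because neurons consume much oxygen and hold much oxidizable lipid.

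Of the 39 genes, 38 had at least 1 probe set on the array, 80 probe sets in all, and PRDX5 was not analysed here. The deposited values are linear signals, with the trimmed mean of each array set to 100. Analysis was done on log2(signal + 16) for 15000 of the 54613 probe sets that are not controls. They were ranked by the third-highest of their 18 signals, and the lowest such signal kept was 146.7. In these, 29 member genes had a probe set that carried their symbol alone, and each gene was followed by the brightest such probe set. The human probes met lemur RNA, so a signal depends on how well the probe matches the lemur transcript, and no probe set was set against another. Of the member genes 37 are listed under the same symbol in the RefSeq annotation of the lemur genome.

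Array medians lay between 30.7 and 54.4, and the poly-A control RNA seen on 14 arrays was missing from those of AD-like F2, young adult M2 and the old males M1 and M2, 4 in all. The neuron marker SNAP25 gave between 5682 and 39885, as a cortical sample should. Probe sets of 7 of 8 neuron, 7 of 9 astrocyte, 7 of 8 oligodendrocyte, 2 of 9 microglia, 4 of 8 endothelial and 4 of 5 red blood cell markers were kept, and those of GFAP, S100B and ENO2 were not. In a piece of tissue, fewer cells of a type and less RNA per cell cannot be told apart. Each p below is from limma over the 15000 probe sets, given before Benjamini-Hochberg adjustment unless called adjusted.

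The first question was whether the healthy old cortex differs from the young adult cortex in these genes. Of the 29 genes tested, 22 averaged higher in old animals and 7 lower, where 53.6% of all 15000 probe sets averaged higher. Thioredoxin (TXN), the small protein that reduces peroxiredoxins and many other oxidized proteins, was 1.56-fold higher in the old group on the means of the signals. DJ-1 (PARK7), a redox-sensitive protein mutated in a familial form of Parkinson's disease, was 1.91-fold higher. Omega-class glutathione transferase (GSTO1), which also reduces mixed disulphides, was 1.34-fold higher. These were the 3 members at an unadjusted p under 0.05, or 10.3% of the 29, where 3.47% of all 15000 probe sets were called higher in that way. No member was called lower, where 2.42% of all probe sets were. After adjustment 0 members passed at 0.05 in limma, as 0% of all probe sets did, and the smallest adjusted p of a member was 0.838. The list was not taken at random, so these shares describe it and carry no test of it. The median log2 difference of the 29 genes was 0.16, against 0.03 over all 15000 probe sets.

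In the deposited scaling, the brighter a probe set was, the more it tended to lie higher in old animals. Probe sets with a mean signal over 1000 had a median log2 difference of 0.26, those from 500 to 1000 had 0.13, those from 200 to 500 had 0.04 and those under 200 had -0.06. The 7 member genes over 1000 had a median of 0.27, close to that of all probe sets of their brightness. After quantile normalization, which gives every array the same distribution, the 7 members and all the probe sets over 1000 had medians of 0.02. The members of that class spread to both sides of this median, and TXN (0.66, then 0.35) and SOD1 (0.50, then 0.35) lay above it before and after that step. The 8 members from 200 to 500 kept a median of 0.24 after that step, against 0.03 for all probe sets of the class, and the 4 members from 500 to 1000 kept 0.23 against 0.04. The largest class, the 10 members under 200, went the other way, with -0.13 against -0.06 in the deposited scaling and -0.10 against 0.01 after quantile normalization. Over all the members, 18 of 29 were then higher in old animals with a median of 0.11, and only PARK7 stayed under an unadjusted p of 0.05.

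**Figure D1:**
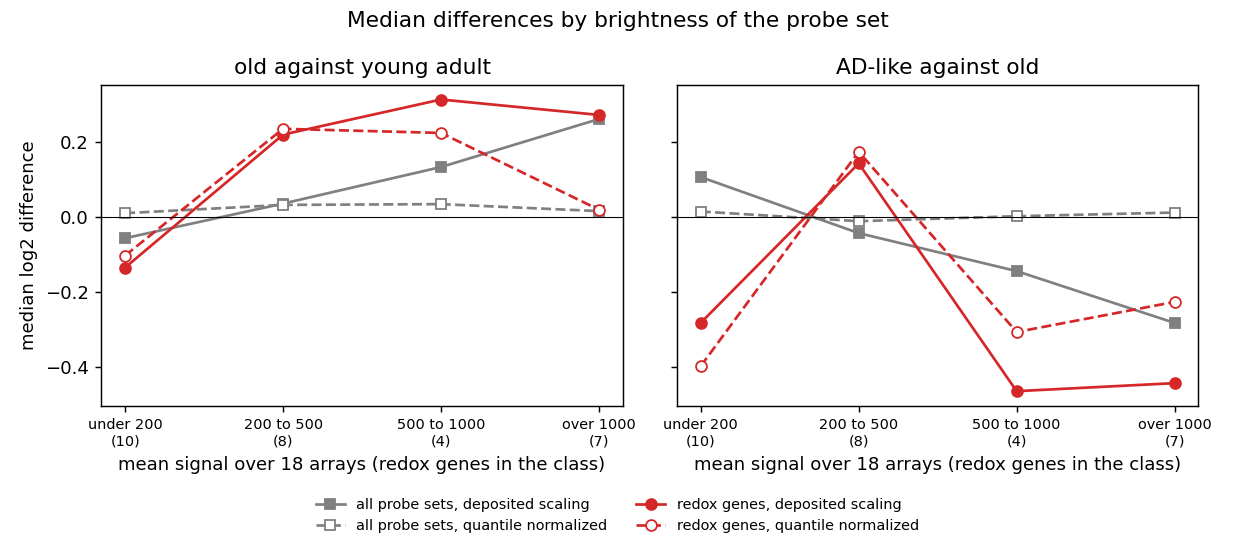
Median log2 difference of all kept probe sets (grey squares) and of the member genes (red circles) in 4 classes of mean signal, for old against young adult (left) and AD-like against old animals (right), with filled symbols for the deposited scaling and open ones for quantile normalization. The grey line rises to 0.26 and falls to -0.28 in the brightest class and lies near 0 after normalization, while the 7 brightest members go from 0.27 to 0.02 on the left and from -0.44 to -0.23 on the right.

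The cytosolic thioredoxin gene TXN was read by probe set 208864_s_at. Signals in young adult animals ran from 1234 over a median of 2423 to 3016, those in old animals from 2436 over 3518 to 4926, and the AD-like animals gave 2725 and 2014. All 10 old animals lay above the young adult median and 7 above every young adult, and these 7 were the 7 old females, from 3141 upwards. The 3 old males, at 2436, 2605 and 2848, lay inside the young adult range and the young males gave 1234 and 2534. The group means were 2286 ± 655 (SD, n = 6) and 3555 ± 821 (SD, n = 10). On the log2 scale the difference was 0.66 with a standard error of 0.23 (limma, p = 0.0095, adjusted p = 0.838). It fell to 0.35 after quantile normalization, where the call was lost (limma, p = 0.078), and within females alone it was 0.67. A dimmer TXN probe set, 216609_at, was not kept, and without the filter its difference was -0.67 (limma, p = 0.14).

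Signals of PARK7, from probe set 200006_at, ran from 50.7 over 108 to 211 in young adult animals and from 109 over 184 to 478 in old animals, and were 149 and 189 in the AD-like animals. All 10 old animals lay above the young adult median, and old M1, M2 and F4 above every young adult. The group means were 116 ± 60.8 (SD, n = 6) and 222 ± 109 (SD, n = 10). The log2 difference was 0.86 with a standard error of 0.31 (limma, p = 0.0100, adjusted p = 0.838). The highest young animal (M2) and the highest 2 old animals (M2 at 478 and M1 at 306) were all on arrays without poly-A control RNA. Within the 14 arrays that carried it the difference was 0.83 (limma, p = 0.00796), and with the presence of that RNA as a block it was also 0.83 (limma, p = 0.00255). PARK7 was the member that kept an unadjusted p under 0.05 in each of the 34 alternatives fitted gene by gene, with differences between 0.64 and 1.05. Some young adult signals lay near the array medians, with 50.7 in F1 and 66.0 in M1, where those medians were 37.1 and 54.4. The alternatives all read this same probe set and do not bear on that limit.

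For GSTO1 (probe set 201470_at) the young adult signals ran from 219 over 342 to 435 and the old signals from 357 over 454 to 581, and the AD-like animals gave 411 and 481. Each of the 10 old animals exceeded the young adult median, 6 of them exceeded every young adult, and the AD-like values fell in the middle of the old ones. The group means were 336 ± 71.6 (SD, n = 6) and 452 ± 81.8 (SD, n = 10). The log2 difference was 0.42 with a standard error of 0.20 (limma, p = 0.045, adjusted p = 0.838). The call was lost in 16 of the 34 alternatives, among them the one without young adult F3, the animal with the lowest signal, where the difference was 0.31 (limma, p = 0.14). The second kept GSTO1 probe set gave 0.22.

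**Figure D2:**
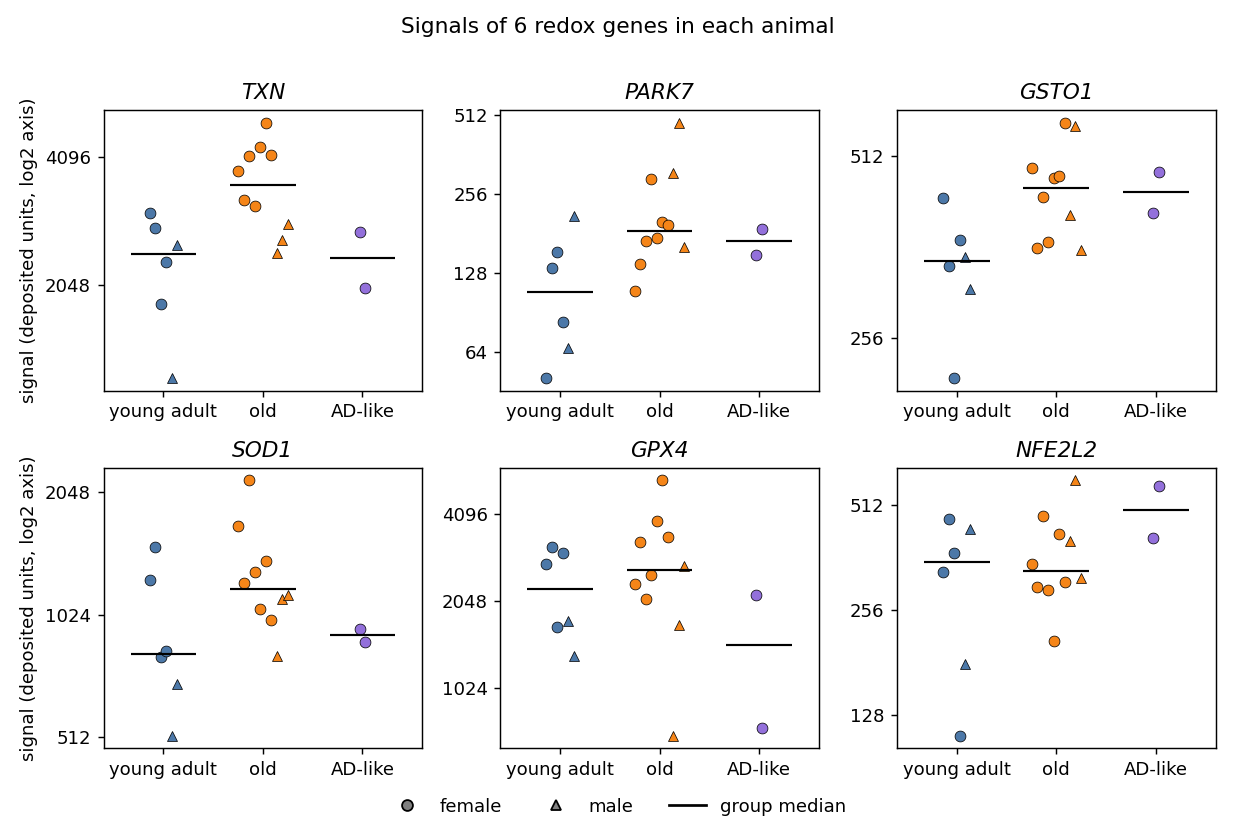
Signals (log2 axis, deposited units) of 6 member genes in each of the 18 animals, with circles for females, triangles for males and a bar for each group median. For TXN the 7 old females lie above all 6 young adults, for PARK7 and GSTO1 all 10 old animals lie above the young adult median, and for GPX4 and NFE2L2 the groups overlap over most of their range.

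Among the superoxide dismutases, SOD1, the copper and zinc enzyme of the cytosol, gave 517 to 1497 in young adults with a median of 818, 809 to 2183 in old animals with a median of 1182, and 946 and 875 in the AD-like animals. Of the old animals 9 lay above the young adult median, but only 2 above all young adults. The means were 930 ± 366 (SD, n = 6) and 1289 ± 394 (SD, n = 10), a 1.39-fold ratio. The log2 difference of 0.50 had a standard error of 0.25 and a 95% interval from -0.02 to 1.02 (limma, p = 0.058), and it came under 0.05 in 10 of the 34 alternatives, with sex as a covariate at p = 0.037 for example. SOD3, the secreted enzyme, differed by -0.16 (limma, p = 0.72) and had widely scattered signals, from 28.0 to 189 in young adults and from 28.5 to 233 in old animals. The mitochondrial enzyme SOD2 had no kept probe set of its own. A kept probe set that it shares with SOD2-OT1 gave 16.4, 46.1 and 171 as the lowest, median and highest young adult signals, 14.6, 74.3 and 217 as the old ones, and 33.4 and 49.7 in the AD-like animals. Near the array medians and with groups that overlap throughout, no level of SOD2 was read from these signals.

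The enzymes that remove peroxides averaged higher in old animals in 5 of 7 cases, with a median log2 difference of 0.31, and none reached an unadjusted p under 0.05 in limma. Peroxiredoxin 1 (PRDX1), the abundant cytosolic form, gave 732, 1074 and 1446 as lowest, median and highest young adult signals and 807, 1425 and 1868 as the old ones, with 1294 and 868 in the AD-like animals. Of the old animals 5 exceeded all young adults, and the difference was 0.35 with a standard error of 0.23 (limma, p = 0.15). Peroxiredoxin 6 (PRDX6), which also acts on oxidized phospholipids, had 100, 505 and 744 in young adults, 202, 627 and 806 in old animals, and 465 and 257 in the AD-like ones. Its difference of 0.47 (limma, p = 0.22) was 0.11 without young adult F4, the animal at 100. Peroxiredoxin 2 (PRDX2), the form prominent in neurons and red cells, went the other way by -0.11 (limma, p = 0.71), with 115, 231 and 303 in young adults, 126, 202 and 296 in old animals, and 201 and 63.9 in the AD-like animals. PRDX4, the form of the endoplasmic reticulum, differed by 0.51 (limma, p = 0.13).

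Glutathione peroxidase 1 (GPX1), the general cytosolic enzyme, gave 168, 222 and 350 in young adults, 150, 308 and 438 in old animals, and 221 and 170 in the AD-like animals. Here 8 old animals lay above the young adult median and the difference was 0.31 with a standard error of 0.24 (limma, p = 0.21). Glutathione peroxidase 4 (GPX4), which reduces lipid hydroperoxides in membranes and so guards against ferroptosis, had 1321, 2251 and 3166 in young adults and 700, 2618 and 5379 in old animals, with 2151 and 741 in the AD-like animals. The old group held both the lowest and the highest of the healthy signals, so that the difference of 0.21 was smaller than its standard error of 0.36 (limma, p = 0.57). GPX3, the secreted form, differed by -0.29 (limma, p = 0.54).

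Catalase (CAT) and mitochondrial peroxiredoxin 3 (PRDX3) were not tested, since no probe set of theirs was kept. The brightest one of CAT gave 31.0, 71.7 and 148 in young adults, 35.9, 92.8 and 142 in old animals, and 53.4 to 115 in the AD-like animals. That of PRDX3 gave 60.3, 70.8 and 202 in young adults, 52.6, 112 and 133.2 in old animals, and 108 to 128 in the AD-like animals. Both were dim and overlapped between the groups.

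Beside TXN, 5 of the other 6 genes of the thioredoxin and glutaredoxin systems averaged higher in old animals, by small amounts, and the median of the 7 was 0.09. Mitochondrial thioredoxin (TXN2) differed by 0.00, thioredoxin reductase 1 (TXNRD1), which recharges thioredoxin from NADPH, by 0.08, and GLRX5, an iron-sulphur cluster protein of mitochondria, by 0.09. The thioredoxin-binding inhibitor TXNIP differed by 0.33 (limma, p = 0.33) with signals from 291 to 560 in young adults and from 140 to 1032 in old animals, and with an SD on the log2 scale of 0.81 in old animals against 0.32 in young adults. Its second kept probe set gave -0.32. GLRX3, a cytosolic glutaredoxin of iron handling, differed by 0.27 (limma, p = 0.37), and its second kept probe set by -0.58 (limma, p = 0.19). Glutaredoxin (GLRX), which removes glutathione from protein thiols, had the most negative difference of any member at -0.73 with a standard error of 0.47 (limma, p = 0.13). Young adult GLRX signals were tight, from 179 to 294, while the old ones ran from 8.25 to 288, and old F4 at 8.25 and old M1 at 29.3 lay far below the rest.

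In the glutathione group, 6 of 8 genes averaged higher in old animals with a median of 0.14, and GSTO1 was the one called. The pi-class transferase GSTP1 was among the steadiest members, with 847, 1092 and 1133 in young adults, 869, 1078 and 1728 in old animals, and 861 and 848 in the AD-like animals. Its difference was 0.12 with a standard error of 0.20 (limma, p = 0.54), and old F3 at 1728 and old M2 at 1693 stood above the others. Enzymes of glutathione synthesis, GSS at 0.16 and GCLC at 0.15, glutathione reductase (GSR) at -0.15, the transferases GSTA4 at 0.13 and GSTM3 at -0.22, and the microsomal MGST3 at 0.18 all had p-values of 0.47 or more in limma. GCLC, the catalytic subunit of the rate-limiting enzyme of glutathione synthesis, had the widest log2 spread of any member in young adults, with signals from 4.42 to 150 in young adults and from 5.85 to 172 in old animals.

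The regulator NRF2 itself (NFE2L2) gave 111, 352 and 468 in young adults, 209, 331 and 603 in old animals, and 411 and 581 in the AD-like animals. The old median lay below the young adult median while the mean difference was 0.30 with a standard error of 0.29 (limma, p = 0.31). The 2 lowest young animals were F4 at 111 and M1 at 179. Its repressor KEAP1 was not kept, with 16.2, 27.7 and 38.1 in young adults, 13.1, 32.0 and 126 in old animals, and 18.5 to 37.6 in the AD-like animals. Of the effector enzymes, the quinone reductase NQO1 differed by 0.23, inducible haem oxygenase (HMOX1) by -0.24 and constitutive haem oxygenase (HMOX2) by 0.14, with p-values of 0.48 or more in limma. The remaining members were also too dim to be kept, namely mitochondrial thioredoxin reductase TXNRD2 (highest signal 194), GLRX2 (121), the modifier subunit GCLM (189) and the methionine sulphoxide reductases MSRA (210) and MSRB2 (102). No repair enzyme for oxidized methionine was therefore tested.

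**Figure D3:**
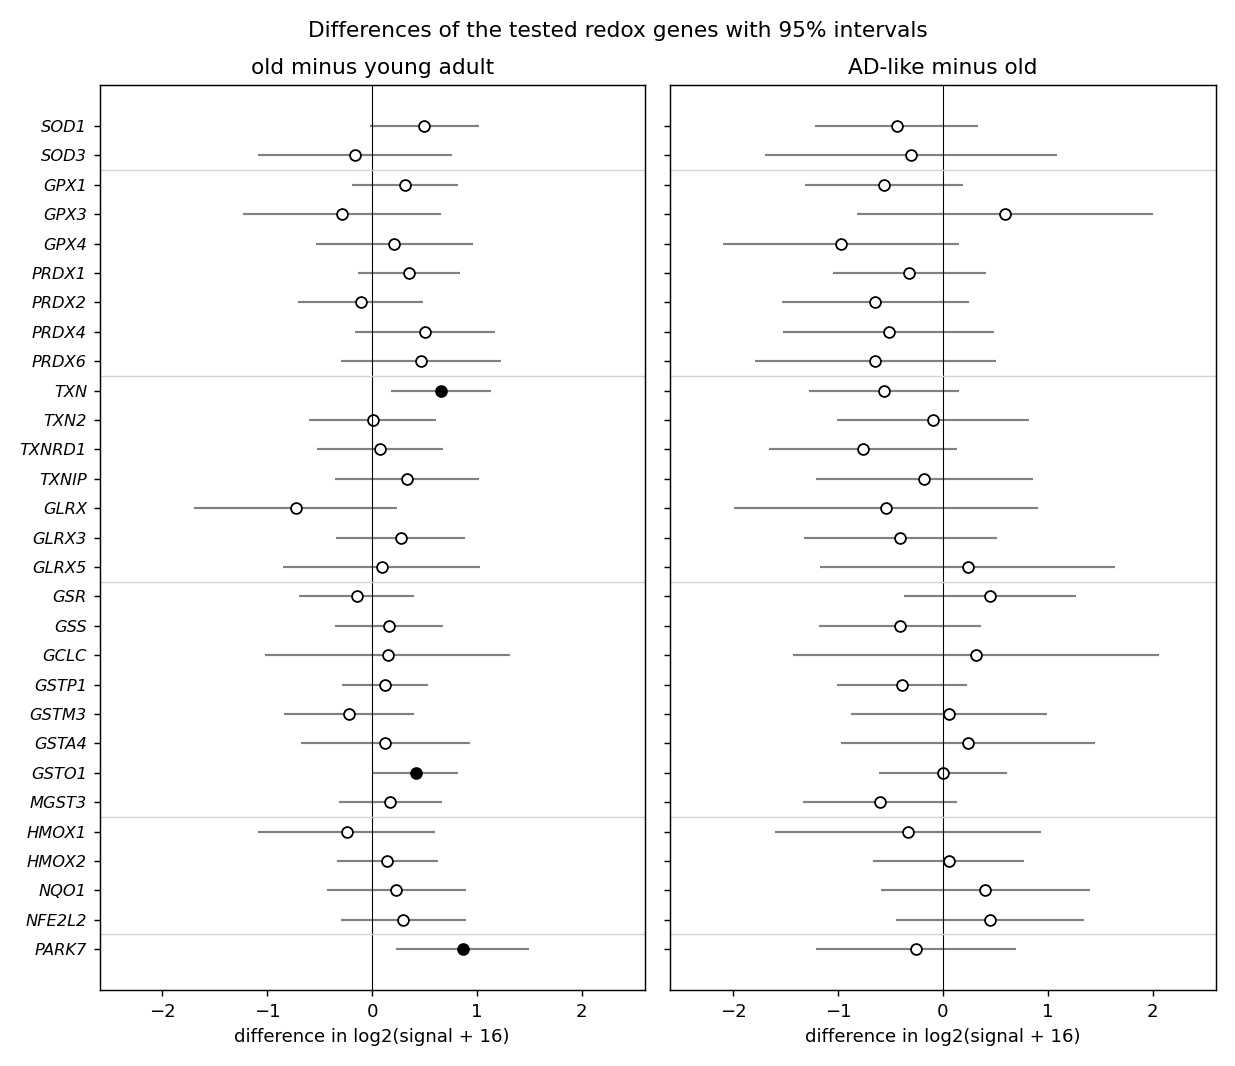
Log2 differences (points) of the 29 tested member genes with 95% intervals from limma, for old minus young adult (left) and AD-like minus old (right), with lines between the systems and filled points for an unadjusted p under 0.05. On the left 22 points lie to the right of 0 and 3 are filled (TXN, GSTO1 and PARK7), and on the right 20 lie to the left of 0, none is filled and every interval spans 0.

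The second question was whether the 2 AD-like animals differ from the healthy old ones. Here 20 of 29 genes averaged lower in the AD-like animals and 9 higher, where 51.6% of all 15000 probe sets averaged lower. The median log2 difference of the 29 genes was -0.32, against -0.02 over all 15000 probe sets. The median of the members was -0.21 after quantile normalization and -0.11 without AD-like F2. In the deposited scaling all probe sets over 1000 had a median of -0.28 and the 7 members among them -0.44. After quantile normalization these were 0.01 and -0.23. The 10 members under 200 lay lower too, at -0.28 against 0.11 for all probe sets of the class, or -0.40 against 0.02 after that step. The 4 members from 500 to 1000 had -0.46 against -0.14, or -0.31 against 0.00. The 8 members from 200 to 500 went the other way, with 0.14 against -0.04, or 0.17 against -0.01. No member reached an unadjusted p under 0.05 in limma, where 1.28% of all probe sets were called higher and 3.6% lower, and 0 passed adjustment, where 0.00667% of all did. The smallest p was that of GPX4. The comparison shares the 10 old animals with the first one, so the values of the members in both are given side by side and no relation between them was computed.

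The peroxide-removing enzymes were lower in 6 of 7 cases with a median of -0.56, GPX3 being the exception at 0.59. GPX4 averaged 0.97 lower on the log2 scale, with a standard error of 0.54 and a 95% interval from -2.09 to 0.15 (limma, p = 0.086), but the AD-like animals themselves were far apart, at 2151 in F1 and 741 in F2. With AD-like F1 alone the difference was -0.21 and with AD-like F2 alone it was -1.73, so the size of the difference changed with the animal. Poly-A control RNA was missing from the array of AD-like F2, and from that of the old animal with the lowest GPX4 signal, M1 at 700. Differences of the others were -0.56 for GPX1, -0.64 for PRDX2, -0.65 for PRDX6, -0.52 for PRDX4 and -0.32 for PRDX1, and for each of these AD-like F2 was the lower of the pair. Without AD-like F2 the differences were 0.08 for PRDX2, -0.04 for PRDX1, -0.24 for PRDX6 and -0.39 for GPX1. The second kept probe set of PRDX2 gave 0.37.

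Of the thioredoxin and glutaredoxin genes 6 of 7 were lower, with a median of -0.41. GLRX3 differed by -0.41, but its second kept probe set by 0.82 (limma, p = 0.22). The second kept ones of TXN2 (-1.09) and TXNIP (-0.12) were lower, as the chosen ones were. TXN differed by -0.56 with a standard error of 0.34 (limma, p = 0.12), its AD-like signals of 2725 and 2014 lying inside the young adult range. After quantile normalization the TXN difference was -0.25 (limma, p = 0.39). TXNRD1 differed by -0.76 with a standard error of 0.43 (limma, p = 0.091), its AD-like signals of 44.5 and 48.0 lying just under the lowest old signal of 49.9 and close to the medians of the arrays. TXNRD1 was called after quantile normalization at -0.92 (limma, p = 0.042, adjusted p = 0.864).

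TXNRD1 and GSTP1 (861 and 848 against 869 in the lowest old animal) were the members for which both AD-like animals lay below all 10 old ones, 2 of 29 or 6.9%, where 1.61% of all probe sets did so. Among these 29 chosen probe sets none had both above all old animals, where 1.43% of all did. A dimmer kept probe set of MGST3 did, with 223 and 229 against 214 in the highest old animal. For 14 members both AD-like animals lay below the old median, and for 2, GPX3 and NFE2L2, both lay above it. The shares of all probe sets for these 2 counts were not computed, so nothing is read from them. NFE2L2 differed by 0.45 (limma, p = 0.31). The glutathione genes were split with 4 higher and 4 lower, MGST3 at -0.60 and GSR at 0.45 being the outermost, and GSTO1 differed by 0.00. SOD1 differed by -0.44 (limma, p = 0.25), or -0.23 after quantile normalization, and PARK7 by -0.26 (limma, p = 0.58).

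Because both AD-like animals were females, they were also set against the 7 old females alone. There limma called 5 members lower (unadjusted p under 0.05), 17.2% of the 29, where 7.95% of all probe sets were called lower and 4.02% higher. They were GPX4 at -1.29 (p = 0.0086, adjusted p = 0.298), TXN at -0.73 (p = 0.022), PRDX4 at -0.85 (p = 0.036), TXNRD1 at -0.80 (p = 0.043) and GSS, glutathione synthetase, at -0.62 (p = 0.043). The 3 old males had lower signals than the old females for several of these genes, on average 1699 against 3279 for GPX4, 2630 against 3951 for TXN, 553 against 1204 for PRDX4 and 505 against 831 for GSS. With sex as a covariate in all 18 animals there were again 5, with MGST3 in place of TXNRD1. The share of all probe sets called in that fit is not given here, so nothing is read from this second count. The probe sets of MGST3 disagreed, since among females another kept one was higher by 1.202 in the AD-like animals (limma, p = 0.011), against -0.68 for the chosen one (limma, p = 0.075). Those of GSS disagreed too, and among females its second kept one gave 0.24 (limma, p = 0.48). No member passed adjustment in either fit. The call thus depended on the reference group, and with 2 AD-like animals the females-only values rest on the same pair. Leaving out the old males also removed M1 and M2, the old animals without poly-A control RNA, which AD-like F2 lacked as well. Array medians were 44.3 and 53.0 in the AD-like animals and ran from 30.7 to 46.5 in the old females. Sex and these features of the arrays cannot be told apart here.

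**Figure D4:**
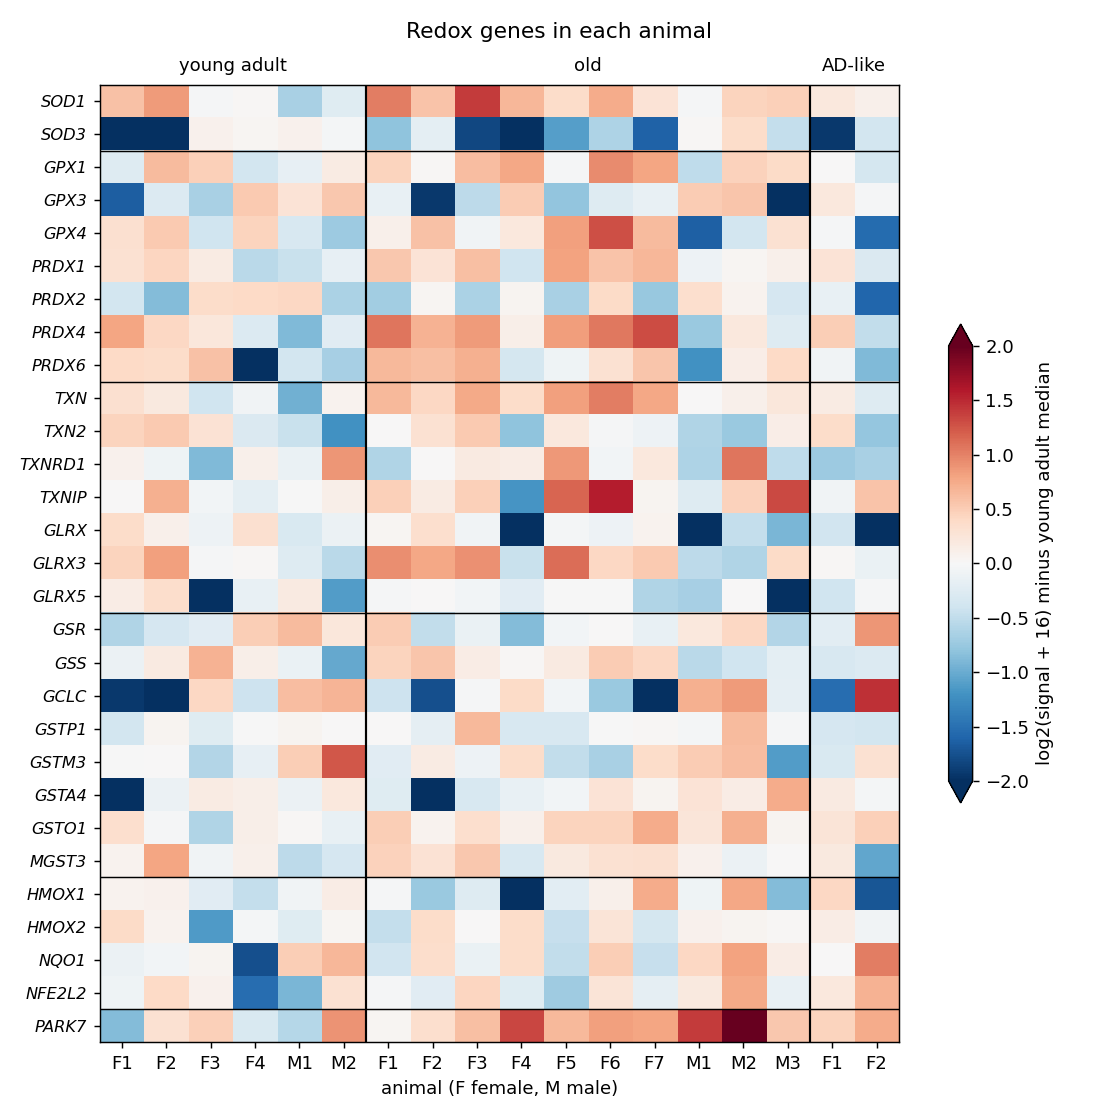
Each of the 29 tested member genes (rows, by system) in each of the 18 animals (columns, F female and M male), coloured by log2(signal + 16) minus the young adult median, with colours saturated at 2 in either direction. The rows of TXN and PARK7 are red or near white across the old animals, the peroxide and thioredoxin rows are mostly redder in the old females F1 to F7 than in old M1, and AD-like F2 is bluer than AD-like F1 in GPX4, PRDX2 and PRDX6.

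Animals differed from each other in how the members stood as a whole. The median deviation of the 29 genes from their mean over all animals ran from -0.19 to 0.13 in young adults, from -0.00 to 0.36 in old animals and was -0.29 and -0.04 in the AD-like animals. After quantile normalization the same ranges were -0.09 to 0.14, -0.09 to 0.40 and -0.07 to 0.03, so the groups then overlapped more. Of the 18 animals, old M2 was the highest for 6 members and old F6 for 4, while young adult F4 and old F4 were each the lowest for 4. Within groups, the members' SD on the log2 scale ran from 0.17 (GSTP1) to 1.34 (GCLC) in young adults and from 0.25 (GSTO1) to 1.21 (GLRX) in old animals, with medians of 0.56 and 0.57, so the typical spread was close in both groups and larger than most of the differences.

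Neuron markers lay in the same direction as the members between young adult and old animals. Of their 7 kept genes 5 averaged higher in old animals, none at an unadjusted p under 0.05, with a median of 0.38, and after quantile normalization 4 of 7 did, with a median of 0.19. All probe sets over 1000 had medians of 0.26 and 0.02 in the same 2 scalings. The mean signals of the 7 neuron markers ran from 1150 to 24012. Their summed signal ran from 16894 to 61925 in young adults and from 36851 to 61924 in old animals, and was 23922 and 54368 in the AD-like animals. The sum of the 7 astrocyte markers ran from 6657 to 21314, from 7851 to 19235, and was 9350 and 12380. Of these 7, 4 averaged higher in old animals with a median of 0.09, and 1 did after quantile normalization, with a median of -0.17. Oligodendrocyte markers lay the other way from neuron markers, with a median of -0.32 and 3 of 7 higher in old animals, and of the 4 endothelial markers none was higher. Ratios of 3' to 5' signal, which serve as a sign of RNA quality, overlapped between the groups and were not tested. The log2 ratio of 3' to 5' signal was 0.31 ± 0.20 (SD, n = 6), 0.59 ± 0.53 (SD, n = 10) and 0.47 ± 0.20 (SD, n = 2) for GAPDH in young adult, old and AD-like animals, and -2.38 ± 0.54, -1.92 ± 1.04 and -1.48 ± 1.44 for ACTB. On every array the ACTB ratio was negative, from -3.27 to -0.40, so its 5' signal exceeded its 3' signal. How well it reflects RNA quality with human probes on lemur RNA was not tested. With the ACTB ratio as a covariate 7 members were called higher in old animals instead of 3. The share of all probe sets called in that fit is not given here, so nothing is read from this count. The part of cell composition in the differences of the members was not tested.

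The third question was whether age acted alike in the sexes, and it was asked of the difference between the male and the female age effects. No member reached an unadjusted p under 0.05 in limma, where 2.43% of all probe sets were called with a larger male effect and 2.17% with a larger female one, and 0 passed adjustment, as 0% of all did. In 13 genes the male effect was the more positive and in 16 the female one, with a median difference of -0.03. On the log2 scale TXN was 0.67 higher in old females and 0.56 higher in old males, and GSTO1 0.42 and 0.40, so these calls had the same direction and nearly the same size in both sexes. PARK7 was 0.75 and 1.16 higher, and SOD1 0.36 and 0.74. The smallest p was that of GSTM3, a mu-class transferase of brain, with 0.10 in females and -0.87 in males, a difference of -0.97 with a standard error of 0.58 (limma, p = 0.11). Young male GSTM3 signals were 221 and 380, those of old males ran from 61.4 to 242, and those of females from 95.3 to 153 when young and from 90.9 to 201 when old. The second kept GSTM3 probe set did not repeat this, with a difference between the sexes of 0.10 (limma, p = 0.92). With 2 young and 3 old males, the interval of the difference for TXN still ran from -1.01 to 0.79, so equal effects were not shown either.

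**Figure D5:**
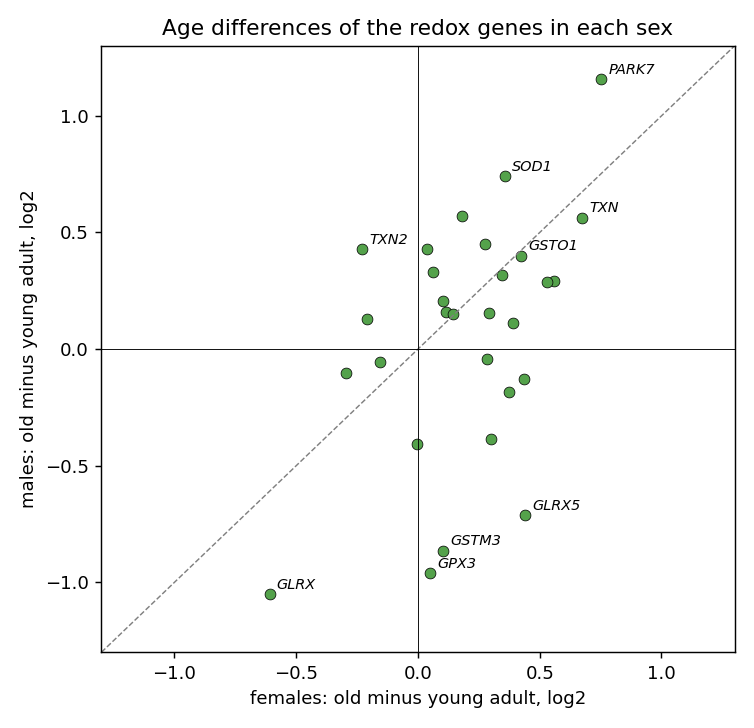
Log2 difference between old and young adult animals in females (horizontal axis) and males (vertical axis) for each of the 29 tested member genes, with a dashed line where both are equal. TXN (0.67 and 0.56), GSTO1 (0.42 and 0.40), SOD1 and PARK7 lie where both values are positive, and GSTM3, GPX3 and GLRX5 lie below the line with a negative male value.

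Where a gene had more than one kept probe set, they often differed. For 10 member genes with 2 or 3 kept probe sets, the differences between old and young adult animals had 1 sign in 3 genes (PRDX2, TXN2 and GSTO1) and both signs in 7. Between AD-like and old animals they had 1 sign in 4 and both in 6, with MGST3 from -0.60 to 1.12 as the widest. Of the 29 chosen probe sets 13 end in _s_at and 2 in _x_at, the array maker's mark for probes that may meet several transcripts of a family or unrelated ones, and signals of paralogues such as the transferases may be mixed there.

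The other genes of the pathway were followed in 4 lists. Of NRF2 targets and partners outside the members 9 of 20 were tested, 8 higher and 1 lower in old animals, and 3 at an unadjusted p under 0.05 in limma, all higher, where 3.47% of all probe sets were called higher. These were the biliverdin reductases BLVRB (1.01, p = 0.0053) and BLVRA (0.53, p = 0.042), and RBX1 (0.68, p = 0.0066), the ring subunit of the ligase through which KEAP1 acts. BLVRB was dim, with mean signals of 72.2 in young adult and 157 in old animals. In the quantile-normalized data 6 were higher and 3 lower, and 1 of the 9 was called. Between AD-like and old animals 2 of the 9 were higher and 7 lower, or 4 and 5 after quantile normalization. Of the NADPH-supplying enzymes 8 of 10 were tested, with 5 higher, 3 lower and none called in old animals. Other glutathione enzymes and transferases gave 8 higher and 3 lower of 11 tested, none called, and between AD-like and old animals GGT7, a gamma-glutamyltransferase family member, was 0.77 lower (log2 difference -0.77, limma, p = 0.037). Other redox and selenoprotein genes gave 11 higher and 2 lower of 13, none called. All these calls were lost on adjustment, with adjusted p-values of 0.838 or more.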

How the data were processed

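The intensity values were deposited by the authors, who made them with GCOS 1.2 and the MAS 5 algorithm, as linear signals with each array's trimmed mean set to 100. No further normalization was stated, and detection calls were not used here. Groups, sex and animal numbers follow the labels. Controls (62 probe sets) were left out.

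Signals were transformed to log2(signal + 16), and a model of the 3 groups over all 18 arrays was fitted with limma 3.58.1 in R 4.3.3 on the 15000 probe sets ranked highest by their third-highest signal. P-values were adjusted by the Benjamini-Hochberg method over all of them, with a threshold of 0.05. The difference between sexes used 5 groups of sex and age. Symbols came from the platform annotation, which can be old, and a probe set with several symbols named no gene. The code was tested on simulated data.

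The members and gene lists were chosen with earlier results of these data known. All members were described, with full signals for those at an unadjusted p under 0.05 and for a fixed set of central genes, and the rest by range. For other lists at most 4 genes were named. TXNRD1 and other genes given in more detail were chosen after their values were seen. Alternatives covered the offset, normalization, filter, variance model, array weights, the methods' test on linear signals, covariates, blocks and leaving out each animal. The SAM and ANOVA analyses of the study were not run.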

Additional observations from a re-analysis of the deposited data

Results flagged for a closer look

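In 58 sets of 1 gene in 1 group (29 genes in the young adult and in the old group), 6 animals stood apart from the others of their group by Dixon's gap test, where chance flags about 1 in 20. The test used log2(signal + 16), on which gaps between low signals are wider than on the linear signals given below. TXNIP was 559.8 in young adult F2, above the next signal of 368.0. GLRX5 was 29.7 in old M3, below the next signal of 195.1. GSTA4 was 66.1 in young adult F1, with 284.7 next to it, and 48.0 in old F2, with 246.7 next to it. HMOX1 was 15.5 in old F4, under 91.0 in the next animal, and NQO1 was 26.9 in young adult F4, under 116.8. None of these genes was called in a comparison of the groups, and 5 of the 6 signals lay on the low side.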

How the results depend on the processing

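In each alternative run, 0 members passed adjustment in any of the 3 comparisons. The count of members at an unadjusted p under 0.05 between old and young adult animals, 3 as reported, was 1 after quantile normalization and 7 with the ACTB 3' to 5' ratio as a covariate, and ran from 2 to 5 when single animals were left out (5 without old M1). Between AD-like and old animals, with 0 as reported, it was 1 after quantile normalization, after median centring, with array weights and with poly-A control RNA as a block, 5 with sex as a covariate and 5 in females only. It ran from 0 to 3 when single animals were left out (3 without AD-like F1, 1 without old M1), and all of these were lower. The replicate block, the label number as a factor, gave 3 (SOD1, PRDX4 and PRDX6), but same-numbered animals did not deviate together throughout (correlations from 0.058 to 0.47), so the numbers do not pair the animals. The median difference of the members there, -0.32 as reported, was -0.48 after median centring, -0.12 within the arrays with poly-A control RNA, -0.13 with the array median signal as a covariate (chosen after seeing the data) and -0.15 over all member probe sets, and ran from -0.42 to -0.11 when single animals were left out (-0.11 without AD-like F2). The arrays with poly-A control RNA hold AD-like F1 alone of the AD-like animals. For the sexes the count of 0 became 1 with poly-A control RNA as a block, and ran from 0 to 2 when single animals were left out (2 without old M2). Within the arrays that carried it the only males were young adult M1 and old M3, so no count is given for them. The median of -0.03 was -0.17 after quantile normalization and -0.17 with array weights, and ran from -0.17 (without old M2) to 0.074 when single animals were left out. No called value turned its direction, and the causes of these changes were not tested. Median centring moved the median of all probe sets to 0.12 and -0.18 in the first and second comparison. Over all probe sets the higher and lower calls, 521 and 363 for old against young adult animals, became 578 and 210 after median centring, 1001 and 1925 without the filter and 517 and 517 with the array median as a covariate. For AD-like against old animals they went from 192 and 540 to 84 and 712, 2146 and 989, and 279 and 508. After quantile normalization they were 542 and 387 in the first comparison and 218 and 640 in the second. Calls over all probe sets are not given for most other alternatives, among them sex or the ACTB ratio as a covariate. No change in the count of members is therefore read as particular to the members. Signals near the array median, such as those of TXNRD1 and of PARK7 in some young adults, are limited by the background of the arrays.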
